A study of Mus musculus with 7 samples.

Results

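Double-negative T cells (DNT cells) are TCRαβ+ T cells that carry neither CD4 nor CD8, and the comparison described here set DNT cells after activation in culture against the same kind of cells fresh from the spleen. It used 4 of the 7 libraries of the series, naive DNT replicates 1 and 2 and activated DNT replicates 1 and 2, chosen by their labels. All came from spleen T cells of 8-week-old male C57BL/6 mice, with no allele or transgene named. Naive DNT cells were sorted as CD3+ NK1.1− TCRαβ+ TCRγδ− CD4− CD8− and as negative for both lipid-loaded CD1d tetramers (αGal and LPC), which bind NKT cells. Activated DNT cells were such naive cells kept in vitro for 3 days with an antibody stimulus to CD3 and CD28 plus IL-2 at 20 ng/ml. No group was cultured without the stimulus, so stimulation, IL-2 and 3 days of culture cannot be told apart. A barcode counted as a cell when it had 200 or more genes and no more than 10% of its UMIs from mitochondrial genes, unless it held any Cd79a UMI (a B cell gene) or 2 or more Lyz2 UMIs (a myeloid gene). This left 3972 and 6525 naive and 1788 and 1530 activated cells, 13815 of 27733 in the series.

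When the T cell receptor and CD28 are engaged, kinases and second messengers turn on transcription factors of the AP-1, NFAT and NF-κB families, and IL-2 signals through a receptor whose α chain is itself induced. A resting T cell then grows, raises its amino acid uptake and nucleotide synthesis, enters the cell cycle and makes cytokines and granzymes, while genes of quiescence and of lymphoid homing such as Klf2 and S1pr1 are shut down. DNT cells of the spleen are a small TCRαβ+ subset that has been studied for suppressive and cytotoxic functions.

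Each library is a 10x Chromium 3′ library, in which unique molecular identifiers (UMIs) count captured mRNA molecules. Replicate 1 of each group was made with kit v2 and replicate 2 with kit v3. The kept cells held 16872619 and 51857152 UMIs in the naive and 34292986 and 24808369 in the activated libraries. CD3-chain transcripts were present in all 4 libraries. Cd4 had 1, 3, 7 and 2 UMIs in naive 1, naive 2, activated 1 and activated 2, near 0 in every library, while Cd8b1 had 262, 277, 107 and 59. Cd8a, the other CD8 chain, had 17, 17, 86 and 87 UMIs and went the other way, higher in activated cells at a low level (2.23 ± 0.62 on the log2 scale, edgeR adjusted p = 0.017, and 0.155 without the replicate term). Markers of other cells differed between the groups: in CPM (a gene's UMIs scaled to a common library total) the 6 red cell genes summed to 3774 and 842 for naive and to 0 and 0.0806 for activated cells. The 7 myeloid markers, all detected on the naive side, summed to 180.4 and 34.4 CPM there against 5.63 and 5.64 CPM on the activated side, where Lyz2 was at 0. The 6 B cell markers measured, mostly Cd79b, summed to 21.04, 22.04, 9.86 and 7.46 CPM. Ms4a1 and Pax5 were at 0 in both activated libraries and Pax5 in naive 1, while Ebf1 had 1, 26, 26 and 5 UMIs. The 5 NK markers, mostly Eomes and Klre1, summed to 142, 132, 55.0 and 80.1 CPM. With all barcodes that held a Hbb-bs, S100a8 or S100a9 UMI also left out (65.2% and 7.19% of the naive and 0.671% and 1.05% of the activated cells), 2367 genes were higher and 2179 lower, 4417 of them called in the fit reported here.

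Of 12184 genes tested, 2465 were higher in activated DNT cells (20.2%) and 2393 lower (19.6%), together 39.9%, by edgeR's quasi-likelihood test on UMIs summed per library with the replicate number as a block and a Benjamini-Hochberg adjusted p under 0.05. The change was at least 2-fold for 1790 of the higher and 1810 of the lower genes and at least 4-fold for 802 and 735. The fit has 1 residual degree of freedom. Without the replicate term 701 genes were higher (5.75%) and 624 lower (5.12%), 1319 of them shared with the calls above, and the biological coefficient of variation was 0.422 in place of 0.219. Leaving out a library allows no block. Such unblocked fits called 189 higher and 155 lower without naive replicate 1, 329 and 283 without naive replicate 2, 676 and 442 without activated replicate 1, and 1058 and 941 without activated replicate 2. Below, calls named as lost were lost in these unblocked fits unless another fit is named. With cells thinned to 1500 UMIs the calls of Ccl5, Il2ra, Il7r, Nfkb2 and Spry1 were lost too (adjusted p = 0.189, 0.0904, 0.399, 0.0995 and 0.0531).

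**Figure D1:**
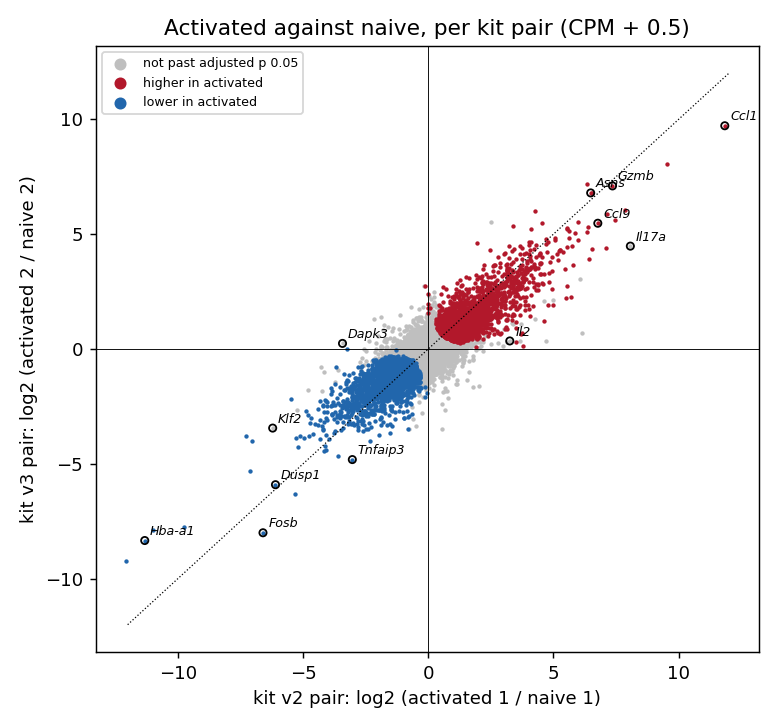
Each point is 1 of 12184 genes, placed by the log2 ratio of CPM with 0.5 added in the kit v2 pair (horizontal axis) and in the kit v3 pair (vertical axis); red and blue genes passed an adjusted p of 0.05 and grey ones did not, and the dotted line marks equal change. Across genes, which are not independent replicates, the pairs correlated with r = 0.855, and Gzmb and Asns lie close to the dotted line while Il2, Dapk3 and Klf2 lie off it.

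CPM describe a gene's level relative to the other mRNA molecules of a library, not molecules per cell, and the 2 quantities moved apart. The marker sums above are unscaled CPM, a gene's share of a library's UMIs. All other CPM are also scaled by the TMM method, which shifts the levels of whole libraries. Unscaled, Cd3e had 437 and 534 CPM in the naive and 337 and 384 in the activated libraries. Activated cells held more UMIs, with a median of 15748 against 4090 in the kit v2 pair (3.85-fold) and 9356 against 7535 in the kit v3 pair (1.24-fold). The mean per cell, on which UMIs per cell rest below, rose further, from 4248 to 19180 (4.52-fold) and from 7948 to 16215 (2.04-fold). Over all tested genes the median log2 ratio of UMIs per cell was 2.34 in the kit v2 and 1.09 in the kit v3 pair, against which the per-cell medians of the lists are to be read. In sums over cells, fewer cells of a type and less RNA per cell cannot be told apart either. How much of this is RNA content and how much sequencing depth was not tested. Of the 2465 genes higher in CPM, 2462 also had more UMIs per cell in both pairs. Of the 2393 genes lower in CPM, 607 had fewer UMIs per cell in both pairs, and 1757 had more in the kit v2 pair. B2m, the light chain of MHC class I, shows the difference: it fell from 5661 and 1918 to 2453 and 1312 CPM but went from 18.6 to 41.8 UMIs per cell in the kit v2 pair and from 17.7 to 26.6 in the kit v3 pair. The call of B2m was lost without any 1 of the 4 libraries (adjusted p up to 0.99). B2m had adjusted p = 0.404 without the replicate term. Fosb fell on both scales, from 0.606 to 0.0240 UMIs per cell in the kit v2 pair and from 3.31 to 0.0183 in the kit v3 pair. In what follows "rose" and "fell" refer to CPM, and families whose median turns on the per-cell scale are named with it or shown in the plot of list medians. List counts give, in brackets, the number higher and lower without the replicate term. The counts are to be read against 20.2% higher and 19.6% lower among all genes, and those in brackets against 5.75% and 5.12%. In either direction 36.4% of lysosome and autophagy genes and 38.5% each of BCL2 family and mRNA decay genes passed, against 39.9% of all genes. NF-κB genes lay near that share, and cholesterol synthesis (42.1%) and chaperone genes (43.5%) little above it. By the share called, these lists do not stand apart from all genes.

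The 10 largest rises among genes with a mean log2 CPM of at least 5 that moved at least 4-fold in both kit pairs were chemokine genes (Ccl20, Ccl1, Ccl9, Ccl3, Ccl4), Il13, Gzmb, Asns, Serpine2 and Cdkn1a. Gzmb, which encodes the protease granzyme B (ENSMUSG00000015437, chr14:56258838-56262260 in GRCm38), stood at 13.9 and 18.6 CPM in the naive and 2377 and 2629 in the activated libraries. The libraries of each group lay close together and the groups were far apart, a log2 fold change of 7.27 ± 0.28 (SE; edgeR adjusted p = 1.6e-07). Ccl4, a chemokine of the macrophage inflammatory protein family (ENSMUSG00000018930, chr11:83662584-83664683), had 58.8 and 28.8 CPM in the naive and 5538 and 3249 in the activated libraries, and Ccl3, its neighbour in the same chemokine cluster (ENSMUSG00000000982, chr11:83647844-83649355), 32 and 8.66 CPM in the naive and 2675 and 1349.6 in the activated libraries. Both rose by over 6 on the log2 scale (6.69 ± 0.26 and 6.83 ± 0.32, adjusted p = 1.6e-07 and 1.2e-06). Ccl20 (ENSMUSG00000026166, chr1:83116766-83119167), the CCR6 ligand, was without a UMI on the naive side and reached 369 and 132 CPM after activation, which is at least 5945-fold higher against 3 UMIs over the naive group. Ccl1, the CCR8 ligand, had 2 UMIs in the naive group and 1843 and 451 CPM after activation. The ratio of its pooled counts was 40751, and counting error alone allows 11281 to 336500 (95%). Ccl1, Ccl20 and Ccl9 all stood higher in activated replicate 1 than in activated replicate 2. The call of Ccl9 was lost without naive replicate 1 or naive replicate 2 (adjusted p up to 0.278). Ccl9 had adjusted p = 0.118 without the replicate term.

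Asns, asparagine synthetase (ENSMUSG00000029752, chr6:7675169-7693254), rose from 0.383 and 0.299 to 79 and 88.5 CPM, 262-fold in the fit (8.04 ± 0.34 on the log2 scale, adjusted p = 2e-07). The 2 kits gave nearly the same levels on each side. The naive levels of Asns rest on few UMIs, so the size of its rise is uncertain. Cdkn1a, the cell cycle inhibitor p21 (ENSMUSG00000023067, chr17:29090976-29100727), rose from 2.53 and 5.71 to 539 and 305 CPM (6.61 ± 0.60, adjusted p = 0.00124), and Serpine2, a secreted inhibitor of serine proteases, from 0.613 and 0.631 to 157 and 66.4 CPM (7.17 ± 0.37, adjusted p = 1.86e-06). Il13, a type 2 cytokine, went from 0 and 0.116 to 115 and 40.4 CPM (9.16 ± 0.55, adjusted p = 2.06e-05). Its naive values too rest on few UMIs.

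Among the 10 largest falls by the same rule were the immediate early genes Fosb, Fos and Jun, the phosphatase gene Dusp1, and Dtx1, Rasgrp2, Ccl5, Ly6c2 and Tsc22d3. Rasgrp2, an exchange factor for Rap1, fell from 239.9 and 207 to 6.08 and 10.2 CPM (−4.81 ± 0.31), and Tsc22d3, the glucocorticoid-induced gene GILZ, from 358 and 324 to 14.4 and 24.9 CPM (−4.17 ± 0.30). Fosb, an AP-1 subunit, went from 184 and 358 to 1.41 and 0.903 CPM (−7.80 ± 0.46, adjusted p = 2.46e-05). Fos went from 839 and 449 to 5.52 and 10.9 CPM, and Jun from 695 and 947 to 25.1 and 69.3 CPM. The naive libraries thus held far more of these 3 transcripts than the activated ones. Dusp1, a phosphatase that acts on MAP kinases (ENSMUSG00000024190, chr17:26505590-26562128), fell from 569 and 553 to 7.82 and 8.74 CPM (−6.08 ± 0.27, adjusted p = 2.85e-07). Ccl5, the chemokine RANTES that memory and innate-like T cells store (ENSMUSG00000035042, chr11:83525778-83530518), fell from 15436 and 5589 to 441 and 401 CPM (−4.46 ± 0.37, adjusted p = 0.000246), the opposite direction to Ccl3 and Ccl4. In thinned cells its call was lost (adjusted p = 0.189). Ly6c2, a surface antigen gene with the near-identical copy Ly6c1, whose reads cannot be fully kept apart, fell from 2207 and 742 to 122 and 33.3 CPM (−4.33 ± 0.25). The call of Ly6c2 was lost without naive replicate 1 (adjusted p = 0.0877). All 10 fell per cell too, in both kit pairs.

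**Figure D2:**
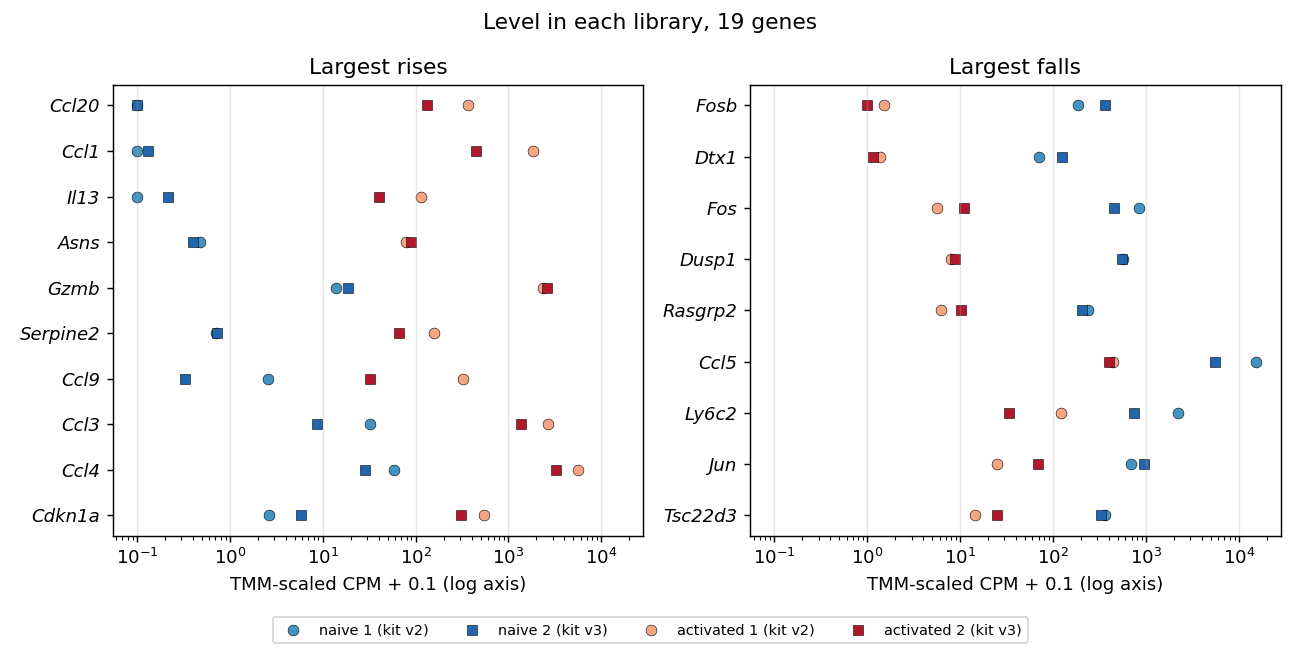
Points give the TMM-scaled CPM plus 0.1 (log axis) of the 10 largest rises (left panel) and 9 of the 10 largest falls (right panel) in each of the 4 libraries, blue for naive and red for activated, circles for kit v2 and squares for kit v3. In every gene both activated points lie on the same side of both naive points. Gzmb, for instance, had 13.9 and 18.6 against 2377 and 2629 CPM. The genes were picked for large changes in both kit pairs, so this was largely set by the choice. Among all called genes the groups did not overlap either in 2250 of 2465 higher and 2181 of 2393 lower ones.

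Shares of cells with a UMI were read after thinning every cell to 1500 UMIs, which left out 41 and 77 naive and 0 and 75 activated cells. Gzmb was found in 1.12% and 2.17% of naive and 52.1% and 25.5% of activated cells, Ccl4 in 4.07% and 2.61% of naive and 65% and 30.7% of activated cells and Xcl1, the chemokine lymphotactin, in 18.4% and 17.8% of naive and 61.8% and 36.9% of activated cells. Each of the 3 was found in a larger share of activated replicate 1 than of activated replicate 2. The CPM of Gzmb, alike in both after TMM scaling, sum unthinned UMIs, in which deeper cells weigh more. Such CPM and the shares are unlike measures, and how the level was spread over cells was not tested. Tnfrsf9, the costimulatory receptor 4-1BB, had similar shares in both activated libraries, with 2.70% and 1.71% of naive and 41.9% and 45.8% of activated cells. Ccl5 fell from near all cells to a minority, with 94% and 79.2% of naive and 29.2% and 39.5% of activated cells, and Dusp1 was found in 41.7% and 46.5% of naive and 1.01% and 0.962% of activated cells. Free RNA sets a floor under such shares: in 70 barcodes of naive replicate 2 with Cd79a and no CD3-chain UMI (median 4838 UMIs), Gzmb was found in 0%, Ly6c2 in 5.71%, Ccl5 in 20.0%, Dusp1 in 27.1% and Fosb in 51.4%. Dusp1 and Fosb are also made by B cells, so for these genes that share is no measure of free RNA.

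A thinned cell held a median of 600 and 731 genes in the naive and 667 and 778 in the activated libraries. Low shares are therefore common at this depth whatever a gene's change. The counts that follow were not made over all tested genes, so they do not set the large changes apart. Of the 802 genes that rose at least 4-fold, 660 were found in under 5% of thinned cells in both activated libraries, and 13 in over 25% of both: Bcl2a1b, Capg, Ccl4, Cdkn1a, Gzmb, Lgals3, Ndfip1, Ran, Rps27l, Tnfrsf9, Tnfsf8, Txn1 and Xcl1. Of the 735 genes that fell at least 4-fold, 552 were in under 5% of both naive libraries and 26 in over 25% of both, among them Ccl5, Ly6c2, Fos, Jun, Dusp1, Klf6, Itgb7, Txk and Cd69. Of the 931 cells with Gzmb in activated replicate 1, 70.4% had a Ccl4 UMI, against 65.0% of all cells, and 44.7% of 371 against 30.7% in activated replicate 2. Klf2 was found in 10.2% of the cells with Gzmb in activated replicate 2, against 22.3% of all cells there, and in 4.08% against 4.47% in activated replicate 1. These cell counts describe 2 libraries and were not tested. The activated libraries held 0 and 3 barcodes with Cd79a and no CD3-chain UMI, so no background share could be set beside them, and the part of free RNA was not tested.

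**Figure D3:**
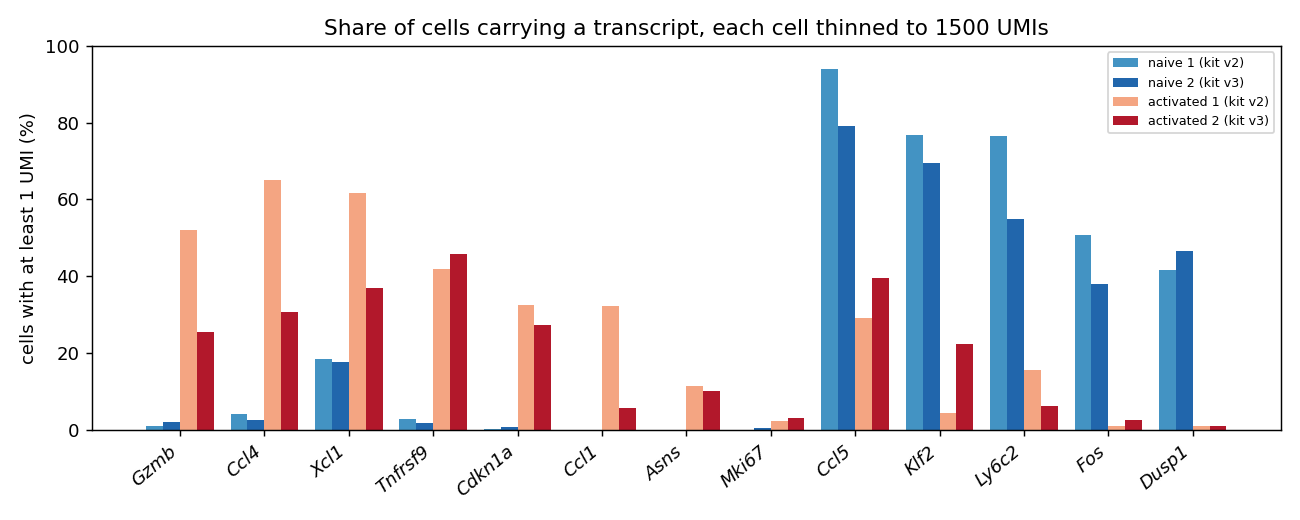
Bars give the share of cells with at least 1 UMI of each gene (percent, axis from 0) after thinning to 1500 UMIs, for naive 1, naive 2, activated 1 and activated 2 in that order. Gzmb, Ccl4, Xcl1, Tnfrsf9 and Cdkn1a are carried by 25.5% to 65.0% of activated cells, while Asns and Mki67 are in at most 11.3% and Fos and Dusp1 in at most 2.47% of activated cells.

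The T cell receptor signalling chain fell more often than it rose: 3 of 27 tested members were higher and 14 lower (0 and 4 without the replicate term), to be read against 20.2% and 19.6% of all genes, with a median log2 fold change of −0.67 against −0.04 over all genes, while per cell the median log2 ratio was 1.54 and 0.54 in the v2 and v3 pairs. Cd3e, a CD3 chain of the receptor complex, had 564 and 459 CPM in the naive and 379 and 307 in the activated libraries and did not pass (adjusted p = 0.0528). Lck, the kinase that phosphorylates the CD3 chains, fell from 754 and 400.3 to 253 and 152 CPM (−1.48 ± 0.22, adjusted p = 0.0005). Cd28, the costimulatory receptor targeted by the CD28 antibody, fell from 395 and 425 to 118 and 128 CPM (−1.73 ± 0.22, adjusted p = 0.000197). The adaptor Sit1, a negative regulator of receptor signalling, fell from 53.3 and 41 to 6.90 and 4.77 CPM, and Themis, which sets receptor signal strength in thymocytes, from 24.8 and 38.4 to 4.73 and 3.19 CPM; both calls held in every setting tried. Prkcq, protein kinase C theta, a kinase of the route from the receptor to NF-κB, fell from 104 and 116 to 25.7 and 38.9 CPM. The calls of Lck and Cd28 were lost without any 1 of the 4 libraries (adjusted p up to 0.442 and 0.299). The call of Prkcq was lost without naive replicate 1, naive replicate 2 or activated replicate 1 (adjusted p up to 0.22). Lck and Cd28 had adjusted p = 0.127 and 0.0511 without the replicate term.

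Receptors of the common gamma chain family split. Il2ra, the IL-2 receptor α chain, rose from 3.52 and 12.7 to 222 and 169 CPM (4.73 ± 0.69, adjusted p = 0.0114) and was found in 0.254% and 2.05% of naive and 20.7% and 21% of activated cells. Il7r, the IL-7 receptor α chain of resting T cells, fell from 173 and 344 to 10.1 and 60.6 CPM (−3.29 ± 0.43, adjusted p = 0.00193), and Il2rb, the shared β chain, from 269 and 339.9 to 115 and 175 CPM (−1.09 ± 0.22), though its UMIs per cell were higher in both pairs. The feedback inhibitors Cish and Socs1, which STAT5 induces, rose from 6.59 and 17.4 to 147 and 125 CPM and from 28.4 and 40.1 to 206 and 210.1 CPM (log2 fold changes 3.61 ± 0.43 and 2.62 ± 0.24). In the whole list 6 of 20 tested members were higher and 6 lower (4 and 1 without the replicate term), with a median log2 fold change of −0.27, and per cell the median log2 ratio was 2.48 and 0.62 in the v2 and v3 pairs. Il2 itself did not pass and differed between kits more than between groups, with 44 and 2.44 CPM in the naive and 426 and 3.26 in the activated libraries (adjusted p = 0.231). The call of Il7r was lost without naive replicate 1, naive replicate 2 or activated replicate 1 (adjusted p up to 0.337). The call of Il2rb was lost without any 1 of the 4 libraries (adjusted p up to 0.698). The call of Cish was lost without naive replicate 1 (adjusted p = 0.0681). The call of Socs1 was lost without naive replicate 1 or naive replicate 2 (adjusted p up to 0.119). Il7r and Il2rb had adjusted p = 0.0956 and 0.186 without the replicate term.

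Transcription factors of activation moved in both directions. Among MYC, IRF4, BATF and AP-1 genes 5 of 18 tested members were higher and 6 lower (4 and 4 without the replicate term). Irf4, which scales with receptor signal and drives effector growth, rose from 0.460 and 3.67 to 82.6 and 63.4 CPM (5.17 ± 0.96, adjusted p = 0.0373), and Batf3, a partner of IRF4 on composite sites, from 0.536 and 0.365 to 65.6 and 40.1 CPM (6.82 ± 0.32, adjusted p = 4.81e-07). Myc, the growth regulator, rose from 32.6 and 23.2 to 77.8 and 58.9 CPM (1.30 ± 0.22, adjusted p = 0.00123), while the AP-1 subunits Fosb, Fos and Jun were among the largest falls. Egr2, a zinc finger factor that feeds back on receptor signalling, rose from 7.12 and 2.94 to 77.7 and 65.8 CPM (3.98 ± 0.32, adjusted p = 1.89e-05), and Tox, a factor of sustained stimulation, fell from 45.9 and 50.7 to 10.6 and 14.2 CPM (−1.97 ± 0.24). Of the NR4A and EGR list 5 of 9 tested members were higher and 1 lower (1 and 1 without the replicate term). Egr2 and Tox were the 2 called without that term. Egr1, another early growth response factor, had 19.1 and 63.4 CPM in the naive and 46.8 and 77.7 in the activated libraries, passed narrowly (adjusted p = 0.0472), and its log2 fold change turned from 0.78 to −0.03 without naive replicate 1. The calls of Myc and Egr1 were lost without any 1 of the 4 libraries (adjusted p up to 0.37 and 0.988). The call of Tox was lost without naive replicate 1, naive replicate 2 or activated replicate 1 (adjusted p up to 0.09). Myc and Egr1 had adjusted p = 0.079 and 0.573 without the replicate term.

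Tnfaip3 (A20), the ubiquitin-editing inhibitor of NF-κB, fell from 167 and 634 to 20.1 and 22.1 CPM (−3.95 ± 0.51, adjusted p = 0.00339) and was found in 17.2% and 60.9% of naive and 2.35% and 5.50% of activated cells. Rel and Nfkb2, both NF-κB subunits, rose from 22.3 and 69.7 to 91.4 and 127 CPM and from 20.5 and 34.4 to 65.5 and 51.8 CPM, and Nfkbia, the inhibitor IκBα, fell from 770.4 and 1140.5 to 524 and 283 CPM. In the list 4 of 15 tested members were higher and 2 lower (0 and 1 without the replicate term) with a median log2 fold change of −0.23, and per cell the median log2 ratio was 2.19 and 0.75 in the v2 and v3 pairs. The calls of Rel, Nfkb2 and Nfkbia were lost without any 1 of the 4 libraries (adjusted p up to 0.565, 0.463 and 0.63). Rel, Nfkb2 and Nfkbia had adjusted p = 0.204, 0.137 and 0.194 without the replicate term.

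Feedback brakes on kinase signalling moved in both directions. Of Sprouty and MAPK phosphatase genes 4 of 14 tested members were higher and 5 lower (0 and 2 without the replicate term). Spry1, a Sprouty inhibitor of Ras signalling, rose from 9.65 and 9.26 to 17.1 and 27.6 CPM (1.22 ± 0.28), and its relative Spry2 fell from 74.3 and 51.3 to 14.3 and 22.7 CPM (−1.77 ± 0.31). Of anergy and diacylglycerol kinase genes 1 of 12 tested members was higher and 7 lower (1 and 3 without the replicate term). Dgka, the kinase that removes diacylglycerol, fell from 139 and 151 to 21.6 and 31.6 CPM, and so did Rasgrp1, the Ras activator that diacylglycerol recruits, from 70.3 and 85.4 to 14.2 and 22.6 CPM. Ndfip1, an adaptor for the E3 ligase Itch, was the 1 member that rose, from 70.4 and 46.3 to 275 and 270.2 CPM (2.26 ± 0.25). Of mRNA decay factors 0 of 13 tested members were higher and 5 lower (0 and 3 without the replicate term): Zfp36 (tristetraprolin), which destabilises cytokine mRNAs, fell from 283 and 477 to 17.6 and 31.1 CPM (−3.97 ± 0.24, adjusted p = 2.52e-06) and Zfp36l2 from 237 and 533 to 30.3 and 90.1 CPM (−2.77 ± 0.24). The medians of these lists were negative in CPM and positive per cell, with median log2 fold change of −0.71 for mRNA decay where per cell the median log2 ratio was 2.09 and 0.48 in the v2 and v3 pairs. The call of Spry1 was lost without any 1 of the 4 libraries (adjusted p up to 0.357). The calls of Spry2, Rasgrp1 and Zfp36l2 were lost without naive replicate 1, naive replicate 2 or activated replicate 1 (adjusted p up to 0.198, 0.0922 and 0.169). The call of Dgka was lost without naive replicate 1 or activated replicate 1 (adjusted p up to 0.063). The call of Ndfip1 was lost without naive replicate 1 or naive replicate 2 (adjusted p up to 0.172). Spry1 had adjusted p = 0.0899 without the replicate term.

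Cell division genes rose together. Of DNA replication genes 23 of 24 tested members were higher and 0 lower (15 and 0 without the replicate term), with a median log2 fold change of 2.04, and of mitosis genes 19 of 20 tested members were higher and 0 lower (18 and 0 without the replicate term), with a median log2 fold change of 3.77. Cdk1, the kinase that drives mitosis, rose from 2.07 and 2.97 to 42.4 and 51.5 CPM (4.21 ± 0.28, adjusted p = 3.36e-06), and Ccna2, its cyclin A partner, from 1.53 and 1.92 to 33.4 and 47.5 CPM (4.55 ± 0.29). Mki67, the proliferation marker Ki-67, rose from 1.84 and 6.95 to 31.1 and 63.5 CPM (3.55 ± 0.30, adjusted p = 1.76e-05). At 1500 UMIs per cell it was found in 0.0763% and 0.388% of naive and 2.24% and 3.16% of activated cells. Gins2, a subunit of the replicative helicase complex, rose from 4.14 and 3.02 to 58.9 and 25.4 CPM, and Lig1, the ligase that joins Okazaki fragments, from 13.5 and 14.6 to 74.3 and 77.5 CPM. The calls of Mki67 and Gins2 were lost without naive replicate 1 (adjusted p = 0.0922 and 0.0526). The call of Lig1 was lost without naive replicate 1 or naive replicate 2 (adjusted p up to 0.0899).

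Genes that make nucleotides and their carbon units rose in most members of 3 lists. Of pyrimidine and deoxynucleotide synthesis genes 12 of 16 tested members were higher and 0 lower (9 and 0 without the replicate term), with a median log2 fold change of 2.02. Rrm2, the ribonucleotide reductase subunit that limits deoxynucleotide supply, rose from 6.59 and 5.08 to 75.6 and 115 CPM (4.04 ± 0.31, adjusted p = 1.44e-05), Tk1, thymidine kinase, from 1.76 and 1.96 to 34.1 and 34.4 CPM (4.19 ± 0.29), and Tyms, thymidylate synthase, from 10.4 and 8.79 to 99.3 and 89.8 CPM (3.30 ± 0.24). Of purine synthesis genes 9 of 14 tested members were higher and 1 lower (1 and 0 without the replicate term). Ppat, the first enzyme of the pathway, rose from 10.6 and 14.7 to 36.1 and 61 CPM (1.91 ± 0.24). Of one-carbon and serine synthesis genes 10 of 12 tested members were higher and 0 lower (6 and 0 without the replicate term). Psat1, an enzyme of serine synthesis, rose from 12.6 and 8.05 to 159 and 79 CPM (3.47 ± 0.25, adjusted p = 6e-06), and Mthfd2, a dehydrogenase of the mitochondrial folate cycle, from 27.3 and 19.1 to 194 and 129 CPM (2.79 ± 0.23). The call of Ppat was lost without naive replicate 1, naive replicate 2 or activated replicate 2 (adjusted p up to 0.193). The call of Mthfd2 was lost without naive replicate 1 or naive replicate 2 (adjusted p up to 0.0775).

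ATF4 is the transcription factor of the amino acid response, and its known targets include Asns and Chac1. Of ATF4 targets and amino acid transporters 19 of 24 tested members were higher and 1 lower (13 and 0 without the replicate term), with a median log2 fold change of 2.35. Chac1, a glutathione-degrading enzyme, rose from 0.0766 and 0.0664 to 18.8 and 14.6 CPM (7.75 ± 0.48, edgeR adjusted p = 2.56e-06). Its naive values rest on a few UMIs, so the size of this rise is uncertain. Slc7a5, the large neutral amino acid transporter, rose from 8.35 and 9.96 to 74.8 and 75.7 CPM (3.04 ± 0.25), and Ddit4, an inhibitor of mTORC1, from 24.7 and 15.2 to 85.5 and 62.5 CPM (1.92 ± 0.23). Atf4 mRNA did not pass (adjusted p = 0.532); its level was 178 and 255 CPM in the naive and 390.4 and 188 in the activated libraries, up in the kit v2 pair and down in the kit v3 pair. The call of Slc7a5 was lost without naive replicate 1 (adjusted p = 0.0592). The call of Ddit4 was lost without naive replicate 1, naive replicate 2 or activated replicate 1 (adjusted p up to 0.192). The 250 bases before the RefSeq start of Asns and of Chac1, 2 raised members of this list, are shown because both hold the same short motif. It is the C/EBP-ATF response element core TGATGNAA, on 1 of the strands (both were searched), in capitals (RefSeq, GRCm38.p6, in the gene's direction; Asns chr6:7693210-7693459, minus strand; Chac1 chr2:119350992-119351241, plus strand). The core was found in 6 of the 22 list genes with a promoter entry (27.3%) and in 3.91% of all 27025 genes with one. A gene counted when any of its entries held the core in this length. A match describes letters in this window, not a bound site.
Asns: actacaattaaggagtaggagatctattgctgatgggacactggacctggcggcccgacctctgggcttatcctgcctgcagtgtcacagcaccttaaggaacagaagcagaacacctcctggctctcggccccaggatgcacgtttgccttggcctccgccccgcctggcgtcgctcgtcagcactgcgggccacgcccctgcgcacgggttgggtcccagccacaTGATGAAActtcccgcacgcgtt
Chac1: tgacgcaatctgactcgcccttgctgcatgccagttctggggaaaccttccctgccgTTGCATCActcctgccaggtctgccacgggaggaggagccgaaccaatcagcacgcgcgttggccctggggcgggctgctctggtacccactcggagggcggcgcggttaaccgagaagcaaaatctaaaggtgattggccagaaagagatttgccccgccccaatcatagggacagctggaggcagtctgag

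Genes of protein making and handling rose by small factors in many members. Of cytosolic aminoacyl tRNA synthetases, which charge tRNAs with amino acids, 13 of 19 tested members were higher and 0 lower (6 and 0 without the replicate term), with a median log2 fold change of 1.03, with Iars going from 8.73 and 11.2 to 41.1 and 47.6 CPM and Nars from 55.5 and 57.3 to 156 and 249 CPM. Of proteasome core genes 13 of 14 tested members were higher and 0 lower (0 and 0 without the replicate term), with a median log2 fold change of 0.98, of nuclear import and export genes 13 of 14 tested members were higher and 0 lower (5 and 0 without the replicate term), and of mitochondrial import and matrix genes 16 of 18 tested members were higher and 0 lower (2 and 0 without the replicate term). Psma7, a core proteasome subunit, rose from 322 and 191 to 836 and 581 CPM and was found in 30.8% and 27.2% of naive and 66.9% and 57.3% of activated cells. Ran, the GTPase of nuclear transport, rose from 387 and 240.3 to 1659 and 957 CPM and was found in 36% and 33.5% of naive and 81% and 60.9% of activated cells. Of chaperones 7 of 23 tested members were higher and 3 lower (2 and 0 without the replicate term): Hspd1, the mitochondrial chaperonin, rose from 99.96 and 134 to 381 and 546 CPM, and Dnajb1, a heat-shock cochaperone, fell from 169 and 103 to 60.3 and 55.7 CPM. The changes named here ran from 2.28-fold to 4.46-fold. The call of Iars was lost without naive replicate 1 or naive replicate 2 (adjusted p up to 0.127). The calls of Nars and Hspd1 were lost without naive replicate 1, naive replicate 2 or activated replicate 2 (adjusted p up to 0.211 and 0.229). The calls of Psma7, Ran and Dnajb1 were lost without any 1 of the 4 libraries (adjusted p up to 0.465, 0.291 and 0.414). Psma7, Ran and Dnajb1 had adjusted p = 0.121, 0.0612 and 0.111 without the replicate term.

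Metabolic lists were mixed. Of glycolysis genes 9 of 21 tested members were higher and 2 lower (1 and 1 without the replicate term): Gapdh, the dehydrogenase of mid-glycolysis, rose from 722 and 619 to 1707 and 1479 CPM (1.25 ± 0.21), and Pdk1, which shuts pyruvate dehydrogenase, fell from 50.2 and 29.9 to 10.8 and 9.09 CPM (−1.96 ± 0.25). Of cholesterol synthesis genes 8 of 19 tested members were higher and 0 lower (3 and 0 without the replicate term); Cyp51 and Idi1, both enzymes of the sterol pathway, rose from 5.44 and 7 to 43.5 and 48.1 CPM and from 7.81 and 9.43 to 57.2 and 50.7 CPM. Of polyamine and iron uptake genes 5 of 13 tested members were higher and 1 lower (2 and 0 without the replicate term); Tfrc, the transferrin receptor, rose from 6.13 and 16.6 to 96.7 and 72.6 CPM (2.99 ± 0.50), and Srm, spermidine synthase, from 43.6 and 29 to 329 and 115 CPM (2.45 ± 0.28). The call of Gapdh was lost without any 1 of the 4 libraries (adjusted p up to 0.566). The calls of Pdk1, Cyp51, Idi1 and Tfrc were lost without naive replicate 1 (adjusted p = 0.144, 0.066, 0.0763 and 0.0996). The call of Srm was lost without naive replicate 1, naive replicate 2 or activated replicate 1 (adjusted p up to 0.171). Gapdh had adjusted p = 0.163 without the replicate term.

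Secreted effectors gave some of the widest ranges. Of cytokine genes 16 of 25 tested members were higher and 2 lower (13 and 1 without the replicate term), with a median log2 fold change of 3.35. Ifng, interferon gamma, rose from 62 and 77.2 to 477 and 572 CPM (2.92 ± 0.23, edgeR adjusted p = 1.15e-05). After thinning it was found in 6% and 9.17% of naive and 16.7% and 9.21% of activated cells. In the kit v3 pair its CPM, from unthinned cells, rose while its share of thinned cells hardly moved, and these are unlike measures. Cytokines of several helper types rose in the same libraries: Il4, a type 2 cytokine, from 3.22 and 4.61 to 77.4 and 30.2 CPM, Csf2, the growth factor GM-CSF, from 1.15 and 2.75 to 32.3 and 74.1 CPM, Lta, lymphotoxin α, from 11.4 and 14.9 to 225 and 199 CPM, and Il10, an inhibitory cytokine, from 0 and 0.133 to 8.14 and 23.1 CPM. Il17a, the type 17 cytokine, had 0.766 and 12.3 CPM in the naive and 341 and 286 in the activated libraries, with no overlap, but missed the threshold (adjusted p = 0.0579), as did Il22 (adjusted p = 0.0661). In 6 and 9 of the 12 alternatives tried, DESeq2 among them, Il17a and Il22 passed. Few cells carried them: Il13 was found in 51 of 1788 and 9 of 1455 thinned activated cells, Il17a in 97 and 80, and both together in 10 and 3. Of chemokine genes 6 of 12 tested members were higher and 2 lower (5 and 1 without the replicate term), and Ccl5 was 1 of the lower ones. The call of Ifng was lost without naive replicate 1 or naive replicate 2 (adjusted p up to 0.105). The call of Il4 was lost without naive replicate 1 (adjusted p = 0.0682).

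Cytotoxic granule genes moved in both directions. Of the list 6 of 19 tested members were higher and 3 lower (5 and 1 without the replicate term), with a median log2 fold change of −0.01. Prf1, the pore-forming protein perforin, did not pass (adjusted p = 0.821) and followed the kit, with 2.68 and 28.5 CPM in the naive and 1.18 and 40.01 in the activated libraries. Serpinb9, the inhibitor that shields a cell from granzyme B, rose from 8.81 and 15.7 to 108 and 118 CPM (3.24 ± 0.27, adjusted p = 1.44e-05), and Ctsd, cathepsin D, fell from 408 and 258 to 127 and 142 CPM (−1.27 ± 0.26). The call of Serpinb9 was lost without naive replicate 1 (adjusted p = 0.0685). The call of Ctsd was lost without any 1 of the 4 libraries (adjusted p up to 0.483). Ctsd had adjusted p = 0.121 without the replicate term.

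Costimulatory and coinhibitory receptors rose in part: 10 of 21 tested members were higher and 4 lower (4 and 2 without the replicate term). Tnfrsf9 (4-1BB) rose from 24.5 and 12.2 to 485 and 816 CPM (5.20 ± 0.53, adjusted p = 0.00155). Pdcd1, which encodes PD-1, rose from 8.35 and 5.89 to 81.7 and 72.7 CPM (3.46 ± 0.25, adjusted p = 6.77e-06). Tnfrsf4 (OX40) rose from 2.30 and 2.87 to 381 and 69.7 CPM (5.82 ± 0.96, adjusted p = 0.0292), with activated replicate 1 well above activated replicate 2, and Cd200, an inhibitory ligand, showed the same order, from 11.6 and 4.51 to 131 and 13.4 CPM (2.53 ± 0.52). The call of Tnfrsf4 was lost without naive replicate 1 or naive replicate 2 (adjusted p up to 0.0829). The call of Cd200 was lost without naive replicate 1, naive replicate 2 or activated replicate 1 (adjusted p up to 0.577). Cd200 had adjusted p = 0.199 without the replicate term.

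Some survival and arrest genes rose beside the division genes. Of p53 targets and cell cycle inhibitors 11 of 19 tested members were higher and 3 lower (6 and 1 without the replicate term), with a median log2 fold change of 1.11. Besides Cdkn1a, Phlda3, a p53 target that restrains AKT, rose from 3.14 and 2.44 to 152 and 54.6 CPM (4.99 ± 0.33, adjusted p = 8.1e-06), and Ccng1, cyclin G1, from 34.1 and 26.7 to 199 and 115 CPM (2.33 ± 0.24). Of BCL2 family genes 5 of 13 tested members were higher and 0 lower (4 and 0 without the replicate term). By the share called, 38.5% against 39.9% of all genes, this list does not stand apart. Bcl2a1d and Bcl2a1b, which encode the survival factor A1 in near-identical copies that can trade reads, rose from 15.9 and 9.99 to 274 and 172 CPM and from 42.8 and 48.1 to 449 and 343 CPM, Bcl2l1 (BCL-XL) from 16.5 and 16 to 143 and 47.7 CPM, and Bcl2l11, the death-promoting BIM, from 22.5 and 53.7 to 58.3 and 122 CPM. Of DNA methylation and Polycomb genes 8 of 17 tested members were higher and 4 lower (3 and 1 without the replicate term): Uhrf1, which brings DNMT1 to replicated DNA, rose from 4.67 and 3.97 to 43.8 and 33.4 CPM, and Ezh2, the H3K27 methyltransferase, from 19.5 and 17.9 to 106 and 123 CPM. The calls of Ccng1, Bcl2a1b and Ezh2 were lost without naive replicate 1 or naive replicate 2 (adjusted p up to 0.126, 0.0851 and 0.0798). The call of Bcl2l1 was lost without naive replicate 1, naive replicate 2 or activated replicate 1 (adjusted p up to 0.152). The call of Bcl2l11 was lost without any 1 of the 4 libraries (adjusted p up to 0.546). Bcl2l11 had adjusted p = 0.196 without the replicate term.

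Genes of the resting state fell. Of the quiescence and naive state list 3 of 24 tested members were higher and 16 lower (0 and 9 without the replicate term), with a median log2 fold change of −1.80, and of lymphoid homing and egress genes 2 of 24 tested members were higher and 17 lower (1 and 9 without the replicate term), with a median log2 fold change of −1.68. For the first, per cell the median log2 ratio was −0.04 and 0.01 in the v2 and v3 pairs, and for the other 0.11 and −0.25, so that both lists lay near equality there, below the 2.34 and 1.09 of all genes. Klf2, a factor that drives egress genes, had 1806 and 1057 CPM in the naive and 23.9 and 96.9 in the activated libraries. It just missed the threshold with the block (log2 fold change −4.83 ± 1.02, adjusted p = 0.0507) and passed without it (adjusted p = 0.0169), and the kit v2 pair fell further than the kit v3 pair. Its target S1pr1, the egress receptor, fell from 89.5 and 152 to 3.38 and 15.2 CPM (−3.99 ± 0.38, adjusted p = 0.000198). Itgb7, an integrin chain of gut homing, fell from 266 and 249 to 15.6 and 29.1 CPM, and Cxcr4, a receptor for marrow homing, from 27.6 and 81.4 to 1.74 and 8.54 CPM. Ccr7, the lymph node homing receptor, did not follow them, with 92.5 and 125 CPM in the naive and 80.1 and 164 in the activated libraries (adjusted p = 0.785). Tcf7, the factor TCF1 of naive and memory cells, fell from 246 and 271 to 32.4 and 99.8 CPM (−2.18 ± 0.38), and Dapl1, a gene of resting T cells, from 79.97 and 37.3 to 4.24 and 1.29 CPM (−4.52 ± 0.29). The calls of S1pr1 and Cxcr4 were lost without naive replicate 1 or naive replicate 2 (adjusted p up to 0.107 and 0.24). The call of Tcf7 was lost without naive replicate 1, naive replicate 2 or activated replicate 1 (adjusted p up to 0.382). Cxcr4 and Tcf7 had adjusted p = 0.0773 and 0.0767 without the replicate term.

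Of GIMAP genes, GTPases of lymphocyte survival, 0 of 8 tested members were higher and 5 lower (0 and 3 without the replicate term), with a median log2 fold change of −1.31, while per cell the median log2 ratio was 0.93 and −0.05 in the v2 and v3 pairs. Gimap4 fell from 626 and 364 to 130.2 and 123 CPM and Gimap7 from 178 and 99.5 to 25.5 and 29.5 CPM. Of RGS and G protein genes 1 of 17 tested members was higher and 9 lower (1 and 4 without the replicate term). Rgs2, which speeds the shut-off of G protein signals, fell from 210.5 and 177 to 26 and 18.3 CPM (−3.15 ± 0.24, adjusted p = 8.13e-06), and its relative Rgs16 was the 1 that rose, from 25 and 29.6 to 226 and 329 CPM (3.33 ± 0.24). Of Notch pathway genes 1 of 15 tested members was higher and 8 lower (1 and 2 without the replicate term); Dtx1, the E3 ligase Deltex, fell from 70.2 and 125 to 1.28 and 1.06 CPM and Rbpj, the DNA-binding factor of the pathway, was the 1 that rose, from 8.89 and 20.5 to 202 and 354 CPM (4.30 ± 0.26). Both lists thus held 1 gene that moved far against the others. Per cell the RGS median was 1.72 and 0.55 and the Notch median 1.43 and −0.04, both below 0 in CPM. The call of Gimap4 was lost without any 1 of the 4 libraries (adjusted p up to 0.219). The calls of Gimap7, Rgs16 and Rbpj were lost without naive replicate 1 (adjusted p = 0.111, 0.0733 and 0.0611).

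NK and innate-like receptor genes fell in most cases: 1 of 23 tested members was higher and 16 lower (1 and 10 without the replicate term), with a median log2 fold change of −1.74, and per cell the median log2 ratio was −0.02 and −0.26 in the v2 and v3 pairs. Il18r1, the IL-18 receptor chain, fell from 77.2 and 133 to 5.39 and 10.7 CPM (−3.73 ± 0.25, adjusted p = 3.6e-06). Klra6 and Klrc2, which belong to the Ly49 and NKG2 families of related copies that can trade reads, fell from 104 and 32.8 to 8.18 and 6.13 CPM and from 47.5 and 58.9 to 4.89 and 11.3 CPM. Tyrobp, a signalling adaptor that myeloid and NK cells also make, fell from 53.2 and 23.4 to 5.62 and 3.74 CPM. The NK marker Ncr1 had 1 and 61 UMIs in the naive and 0 and 3 in the activated libraries. The myeloid and NK sums given above were also lower there. Most UMIs of the NK sum came from Eomes and Klre1 in every library. Klre1 and Klrb1c are also members of this list, so the NK sum is no separate measure of NK cells. The part of other cells in these changes was not tested. The calls of Klra6, Klrc2 and Tyrobp were lost without naive replicate 1 (adjusted p = 0.0682, 0.0592 and 0.0632).

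Interferon response genes fell: 2 of 26 tested members were higher and 17 lower (0 and 12 without the replicate term), with a median log2 fold change of −1.94, although per cell the median log2 ratio was 0.38 and −0.48 in the v2 and v3 pairs. Irf7, the factor that amplifies the interferon response, fell from 45.6 and 39.1 to 2.04 and 3.06 CPM (−4.06 ± 0.30, adjusted p = 7.94e-06). Isg15, a ubiquitin-like modifier, fell from 36.5 and 40.3 to 7.88 and 5.32 CPM (−2.57 ± 0.27, adjusted p = 6.6e-05), and Ifit3, an antiviral protein, from 9.65 and 10.1 to 0.361 and 0.935 CPM (−3.99 ± 0.45, adjusted p = 9.58e-05). These 3 calls held in every setting tried. The sequence before the start of Isg15 and of Ifit3 is shown because both hold a motif known from interferon response genes. The core of the interferon-stimulated response element (GAAA repeated after a gap of 2 bases) was searched on both strands and is in capitals here. It was found in 11 of 20 list genes with a promoter entry (55%) and in 3.46% of all 27025 genes with one. Among the 15 called list genes with an entry, 9 held it. The list was made of interferon response genes, so its share does not bear on why members fell. A gene counted when any of its entries held the core. The sequences are RefSeq's on GRCm38.p6, 250 bases in the gene's direction (Isg15 chr4:156200819-156201068, minus strand; Ifit3 chr19:34583279-34583528, plus strand), and the 3 matches of Isg15 overlap into 1 run of capitals.
Isg15: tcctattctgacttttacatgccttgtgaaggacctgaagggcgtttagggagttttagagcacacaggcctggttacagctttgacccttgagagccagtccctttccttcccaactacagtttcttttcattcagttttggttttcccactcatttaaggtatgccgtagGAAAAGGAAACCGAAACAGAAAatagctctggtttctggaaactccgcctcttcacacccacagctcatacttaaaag
Ifit3: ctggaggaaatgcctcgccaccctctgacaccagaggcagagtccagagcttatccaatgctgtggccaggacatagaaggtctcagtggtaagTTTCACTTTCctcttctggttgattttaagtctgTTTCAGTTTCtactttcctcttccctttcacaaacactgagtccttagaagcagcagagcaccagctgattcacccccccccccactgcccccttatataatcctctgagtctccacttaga

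Antigen presentation genes lay on opposite sides of equality on the CPM and per-cell scales. Of MHC class I genes 0 of 19 tested members were higher and 10 lower (0 and 1 without the replicate term) in CPM, with a median log2 fold change of −0.84, but per cell the median log2 ratio was 1.67 and 0.59 in the v2 and v3 pairs. H2-Q7, a nonclassical class I gene with the close copies H2-Q6 and H2-Q4, fell from 683 and 742 to 135 and 189 CPM (−2.16 ± 0.23), and Irf1, which drives class I genes, from 103 and 172 to 30.4 and 58 CPM (−1.67 ± 0.22). Of S100, galectin and annexin genes 3 of 18 tested members were higher and 7 lower (2 and 1 without the replicate term): Lgals3 (galectin-3) rose from 80.7 and 73 to 841 and 1016 CPM (3.59 ± 0.25), Anxa6 fell from 281 and 221 to 55.2 and 39.8 CPM (−2.41 ± 0.23) and Lgals1 (galectin-1) did not pass (adjusted p = 0.45). Of lysosome and autophagy genes 2 of 22 tested members were higher and 6 lower (1 and 1 without the replicate term). Together this was no larger a share than among all genes. Ctss, cathepsin S, which myeloid cells also make, fell from 105 and 52 to 17.6 and 17 CPM. The part of the lower myeloid sum in the change of Ctss was not tested. Of lineage factors 2 of 25 tested members were higher and 13 lower (2 and 3 without the replicate term): Bcl11b, the factor of T cell commitment, fell from 107 and 146 to 28.6 and 32.4 CPM, Ikzf2 (Helios) from 409.6 and 358 to 87.8 and 110.1 CPM, and Zeb2, a factor of effector differentiation, rose from 4.60 and 6.31 to 33 and 32.7 CPM. The medians of these 3 lists were below 0 in CPM and above 0 per cell in both pairs. The calls of H2-Q7 and Ikzf2 were lost without any 1 of the 4 libraries (adjusted p up to 0.264 and 0.241). The calls of Irf1 and Bcl11b were lost without naive replicate 1, naive replicate 2 or activated replicate 1 (adjusted p up to 0.373 and 0.0884). The calls of Lgals3, Ctss and Zeb2 were lost without naive replicate 1 (adjusted p = 0.0634, 0.149 and 0.0826). The call of Anxa6 was lost without naive replicate 1 or activated replicate 2 (adjusted p up to 0.0928). Irf1 had adjusted p = 0.0763 without the replicate term.

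**Figure D4:**
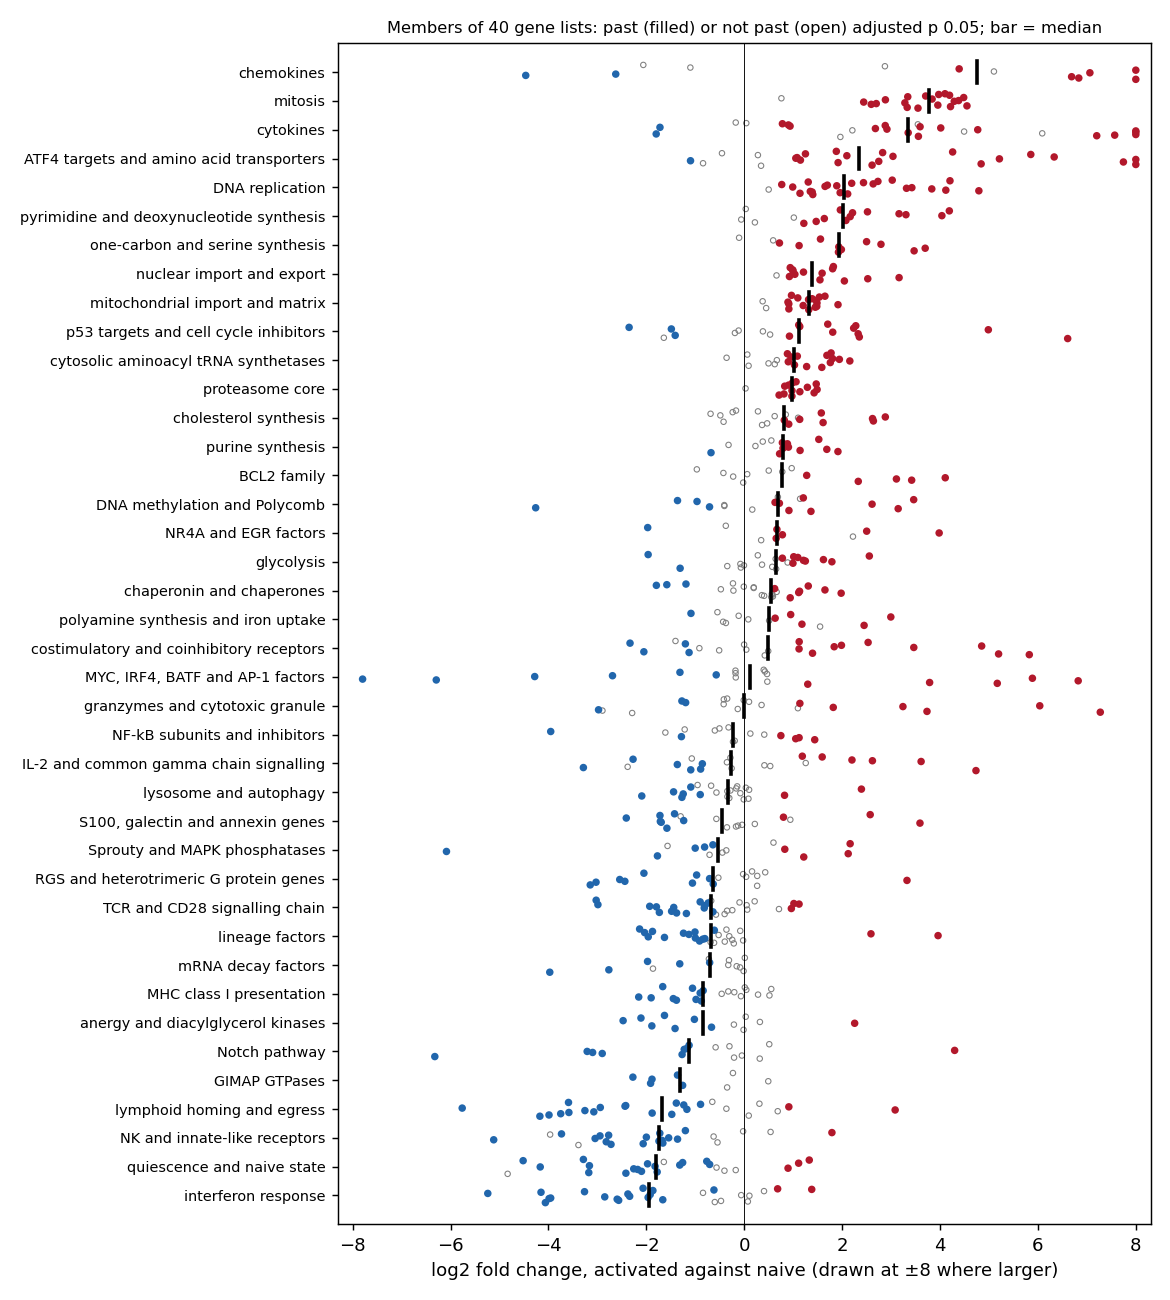
Each point is a tested member of 1 of 40 gene lists, placed by its log2 fold change in activated against naive DNT cells (drawn at ±8 where larger); filled points passed an adjusted p of 0.05, red higher and blue lower, and the bar is the list's median. Medians run from −1.94 for the interferon response to 4.75 for chemokines, against −0.04 over all genes, and lists such as AP-1 factors hold filled points on both sides of 0.

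**Figure D5:**
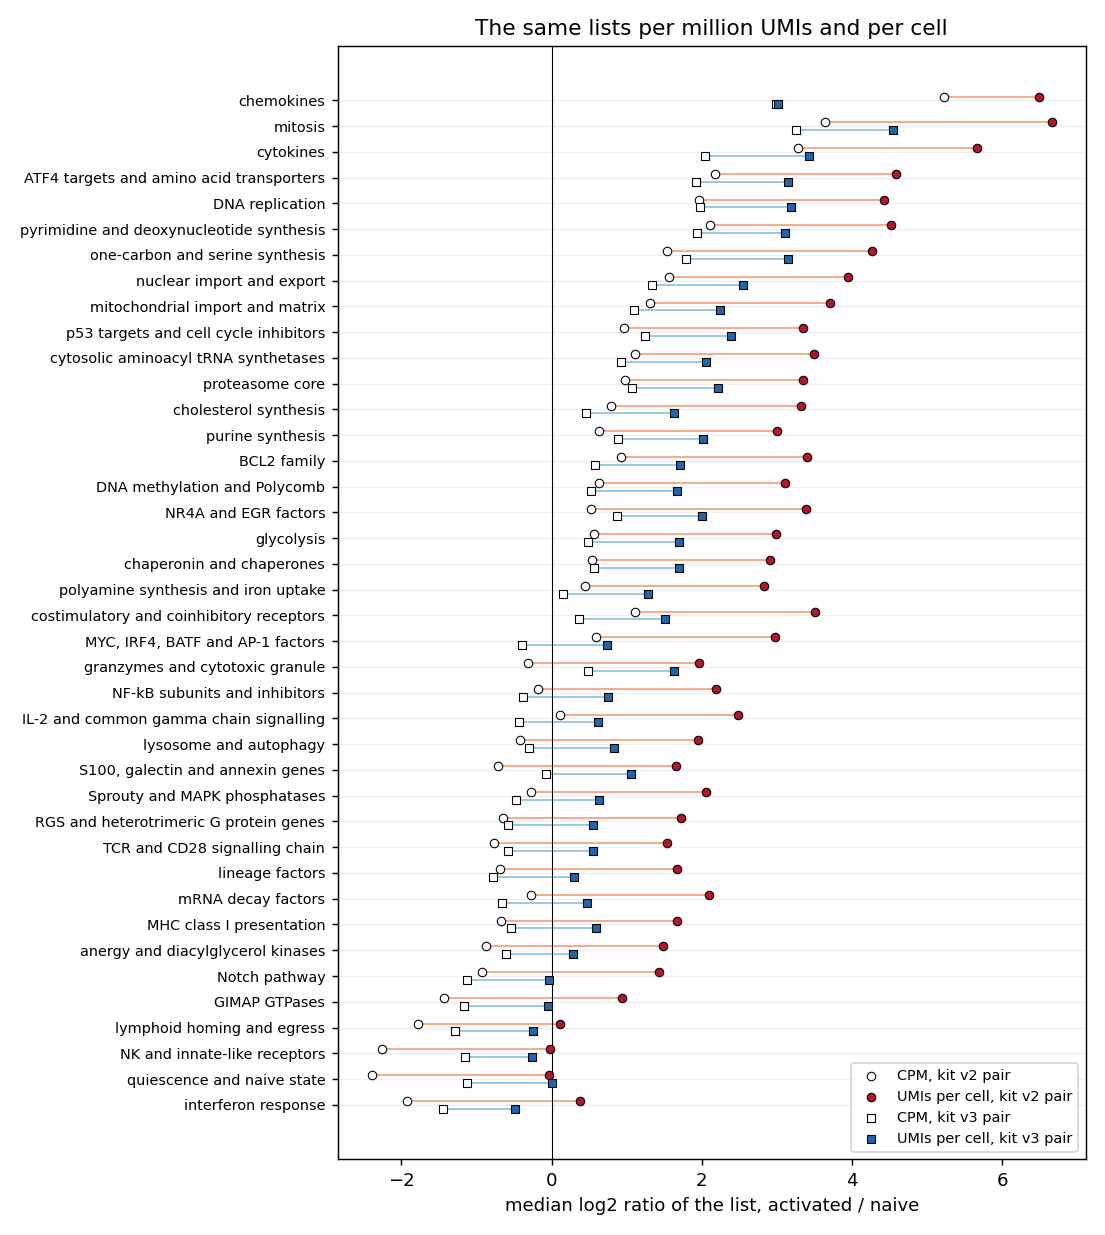
For each list, open symbols give the median log2 ratio in CPM and filled symbols the median log2 ratio in UMIs per cell, circles for the kit v2 and squares for the kit v3 pair. The per-cell medians lie to the right of the CPM ones by more in the kit v2 pair, so that MHC class I moves from −0.68 to 1.67 there and the quiescence list from −2.39 to −0.04.

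A few transcripts differed between the kit pairs more than the groups did; they were chosen after their values were seen. Dapk3, a kinase gene of the death-associated family, had 47.7 and 36.6 CPM in the naive and 4.01 and 43.6 in the activated libraries. Hopx, a homeodomain protein of memory T cells, fell within each pair, from 29 and 193 to 5.32 and 53 CPM (−2.14 ± 0.25, adjusted p = 0.000106), but activated replicate 2 stood above naive replicate 1, and its log2 fold change was near 0 (0.0054) without naive replicate 2. The call of Hopx was lost without naive replicate 1, naive replicate 2 or activated replicate 1 (adjusted p up to 0.999). Hopx had adjusted p = 0.491 without the replicate term. Only 4 genes with a mean log2 CPM of at least 5 moved over 2-fold in opposite directions in the 2 pairs, among them B930036N10Rik, Dusp2 and Gstp1. Whether kit, animals or culture set these differences cannot be told apart, since the replicate number equals the kit.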

How the data were processed

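The deposited matrices hold raw UMI counts per gene and barcode, made by the authors and not normalized. The submitters' processing notes list Cell Ranger 2.1.0 and 3.0.1 and mm10 (GRCm38), and the kit v3 matrix headers name software version 3.0.2. Which version went with which file is not given in the sources used here. The kit v2 reference holds 27998 and the kit v3 reference 31053 genes; the 27514 gene IDs in both were used. Depth is the number of UMIs per library in the report, and UMI intervals and floors (3 UMIs over a group) cover counting error only.

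Barcodes were filtered as the report states, with no doublet caller run. UMIs were summed per library and tested with edgeR 4.0.16 in R 4.3.3 (filterByExpr, TMM, robust quasi-likelihood F test, Benjamini-Hochberg adjustment, threshold 0.05). The replicate number, which the labels tie to the kit, was a block; libraries that share a number departed from their group's mean together (r = 0.643 across genes). Replicates are labelled biological. With the block, p-values measure how far the 2 kit pairs disagree on a gene's change, not the spread between libraries within a group. That disagreement has 1 residual degree of freedom per gene. It was moderated with a median of 9.8 prior degrees of freedom borrowed from the other genes, so the p-values rest largely on variance pooled over genes. On simulated counts for 12184 genes the blocked test recovered 38% of 2-fold, 94% of 4-fold and 100% of 8-fold and 16-fold changes, 50 genes each, with 10 false calls. The simulation gave all genes a common dispersion and changed only these genes, while 39.9% of genes were called in the real data. Its rates therefore do not carry over to the real counts. Alternatives were DESeq2 1.42.0, RLE scaling, no filter on low counts, other barcode filters, thinning and leaving out each library.

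The comparison, the gene lists and the rule for named genes were chosen with earlier results of these data known. The rule names the 10 largest rises and the 10 largest falls (adjusted p under 0.05, mean log2 CPM at least 5, at least 4-fold in both kit pairs, haemoglobin genes left out), the 4 called members of each of 40 lists with the largest change at a mean log2 CPM of at least 4, and a set of anchor genes. A few genes that the rule names are not reported here. Chac1, Ifit3, Xcl1, Il10, Il17a, Il22 and Dapk3 were named outside it, after their values were seen. So were Rps27l, Tnfsf8, Txn1, Txk, Cd69, B930036N10Rik, Dusp2 and Gstp1. The UMIs per cell, the background barcodes without CD3-chain UMIs and the fit without barcodes of red cell or granulocyte RNA were also added after values were seen. Gene coordinates are those of GENCODE vM21 on GRCm38, and promoter sequences are RefSeq's.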

Additional observations from a re-analysis of the deposited data

Results flagged for a closer look

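T cell receptor constant genes are only in the kit v3 reference, so no comparison above used them, and the 2 kit v3 libraries show their signal. Trac, the α chain constant gene, had a UMI in 94.4% of the cells of naive replicate 2 and 87.6% of activated replicate 2. Trbc2, a β chain constant gene, had one in 99.1% and 94.9%. Trdc, the δ chain constant gene, was found in 8.06% of naive replicate 2 and 4.77% of activated replicate 2 although the sort took TCRγδ-negative cells. In the same cells Tcrg-C2, a γ chain constant gene, was found in 27.4% and 25.8%, and Ighm, an immunoglobulin constant gene, in 70.4% and 42.9%, so a UMI of a gene does not by itself place a cell in a lineage. These shares come from cells of unequal depth without thinning, and neither library has a replicate for these genes.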

How the results depend on the processing

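The replicate term decides most calls at this size of 2 against 2 libraries: without it 701 genes were higher and 624 lower, in place of 2465 and 2393, and 121 of the 174 named genes that passed kept their call. Leaving out 1 library, which allows no replicate term, gave 189 (naive replicate 1), 329 (naive replicate 2), 676 (activated replicate 1) and 1058 (activated replicate 2) higher genes and, in the same order, 155, 283, 442 and 941 lower ones. Cells thinned to 1500 UMIs gave 1293 higher and 1264 lower among 9810 genes tested. RLE scaling, DESeq2, no filter on low counts, both other barcode filters and the fit without barcodes of red cell or granulocyte RNA stayed within 1.5 times both counts and kept the call of 170 to 174 of the 174 named genes. In all settings tried 45 of the 174 kept their call. The log2 fold change turned for Egr1 (−0.025 without naive replicate 1) and Hopx (0.0054 without naive replicate 2) and for no other named gene that passed. The share of cells with a UMI (8 genes in 4 libraries) left the 95% Clopper-Pearson interval of its value at 1500 UMIs in 26 of 32 values at 3000 UMIs per cell and in 29 of 32 without thinning, so the shares hold at 1500 UMIs only.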

Other observations

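Counts of cells that held UMIs of 2 effector genes are given here as values. After thinning to 1500 UMIs, Ccl1 was found in 579 cells of activated replicate 1 and 84 of activated replicate 2, and 59.1% and 67.9% of these also had Gzmb, against 52.1% and 25.5% of all cells. Ccl4 was in 74.1% and 66.7% of the cells with Ccl1, against 65.0% and 30.7% of all. Il17a was in 19.6% of the 51 cells with Il13 in activated replicate 1, against 5.43% of all cells, and in 33.3% of 9 such cells in activated replicate 2, against 5.50%. Cells with Il17a had Ifng in 17.5% of 97 and 6.25% of 80 cells, close to the 16.7% and 9.21% of all cells. In the naive libraries 27.3% of 44 and 13.6% of 140 cells with Gzmb had Ccl4, against 4.07% and 2.61% of all. Doublets were not removed, and the activated libraries held 0 and 3 barcodes from which a background share could be read; the part of doublets and of free RNA in these shares was not tested.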
